A study of Mus musculus with 6 samples.

Results

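The 7 long noncoding RNA (lncRNA) genes followed here in the ageing mouse cochlea were Malat1, Neat1, Miat, Tug1, Kcnq1ot1, Mir22hg and 1700020I14Rik. They are 7 of the 25823 genes in the expression table and contribute 17 of its 56671 transcripts. Malat1, Neat1, Miat, Tug1 and Kcnq1ot1 were listed as abundant nuclear lncRNAs of known function, and their age differences were tested. Kcnq1ot1 stood near the middle of all tested genes by level (percentile 49.6). Earlier results of these data were known when the list was made, so the choice was not blind to them. Mir22hg and 1700020I14Rik were chosen by the difference between young and old animals in these same samples, so their differences are given as a description with no test. All animals were C57BL/6 mice, an inbred strain with early-onset hearing loss. The young group was 1 month old and the old group 12 months old by the sample labels. Each group held 3 RNA samples, and every sample was a pool of dissected tissue, named in the labels as cochlear basilar membrane, from 3 mice, so that n counts pools rather than animals.

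Malat1 is a nuclear RNA of the splicing-factor domains called nuclear speckles, and Neat1 is the architectural RNA around which paraspeckles form. Miat is enriched in neurons and carries repeats of a splicing branch-point sequence that binds splicing factors. Tug1 is a broadly expressed lncRNA, linked in other tissues to Polycomb repressive complex 2 and to the mitochondrial coactivator PGC-1alpha. Kcnq1ot1 is an antisense RNA within Kcnq1 that silences neighbouring genes on the paternal chromosome. Mir22hg is the spliced host transcript of microRNA-22. 1700020I14Rik, named Oip5os1 or Cyrano elsewhere, is conserved across vertebrates and holds a site that pairs extensively with microRNA-7 and directs its decay.

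The sequences that set these functions were read from RefSeq (GRCm38.p6) for the microRNAs and from the transcripts of GENCODE release M21 for the lncRNAs. The hairpin of microRNA-22 is shown because it lies in the Mir22hg transcripts. It occupies chr11:75463716-75463810 on the plus strand, in exon 2 of both Mir22hg transcripts, at positions 241 to 335 of ENSMUST00000149940 and 136 to 230 of ENSMUST00000134345. Capitals mark both mature arms in the hairpin and the seed, bases 2 to 8, in each arm. The arms lie at chr11:75463734-75463755 (5p) and chr11:75463772-75463793 (3p).
Mir22 hairpin: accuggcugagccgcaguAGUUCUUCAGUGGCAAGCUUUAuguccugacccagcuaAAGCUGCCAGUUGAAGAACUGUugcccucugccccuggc
miR-22-5p: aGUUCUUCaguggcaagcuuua
miR-22-3p: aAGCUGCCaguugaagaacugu

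The second set shows the pairing between microRNA-7 and 1700020I14Rik. The extended site lies in exon 3 of the long transcript ENSMUST00000153581, at positions 2935 to 2959 and chr2:119602137-119602161 on the plus strand. Capitals in the sites mark bases that pair with the microRNA. In the extended site, 13 bases pair with bases 11 to 23 of miR-7a-5p, 4 bases stay unpaired and the seed match follows. A site with the seed match alone lies at chr2:119599952-119599971, inside both 1700020I14Rik transcripts. The short transcript ends before the extended site. The seed match GTCTTCC, read on the transcript strand, occurs in 369 of 3243 lncRNA transcripts of the table with a sequence (11.4%), and a match of letters is a description, not a measured interaction.
miR-7a-5p: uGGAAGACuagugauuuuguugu
extended site: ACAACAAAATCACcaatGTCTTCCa
seed-only site: tttttttttaatGTCTTCCa

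The third set is a stretch of Miat with 3 copies of the branch-point motif TACTAAC, marked in capitals. It lies at chr5:112217314-112217455 on the minus strand, at positions 4533 to 4674 of ENSMUST00000181535. Both long Miat transcripts hold 6 copies, all in exon 7, and the short transcript ENSMUST00000182258 holds 0. On the transcript strand, at least 1 copy occurs in 104 of the 3243 lncRNA transcripts (3.21%), and only 2 hold 5 or more, both from Miat.
Miat stretch: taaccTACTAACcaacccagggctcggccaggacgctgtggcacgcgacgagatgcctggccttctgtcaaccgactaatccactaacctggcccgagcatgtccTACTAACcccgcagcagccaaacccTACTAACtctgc

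**Figure D1:**
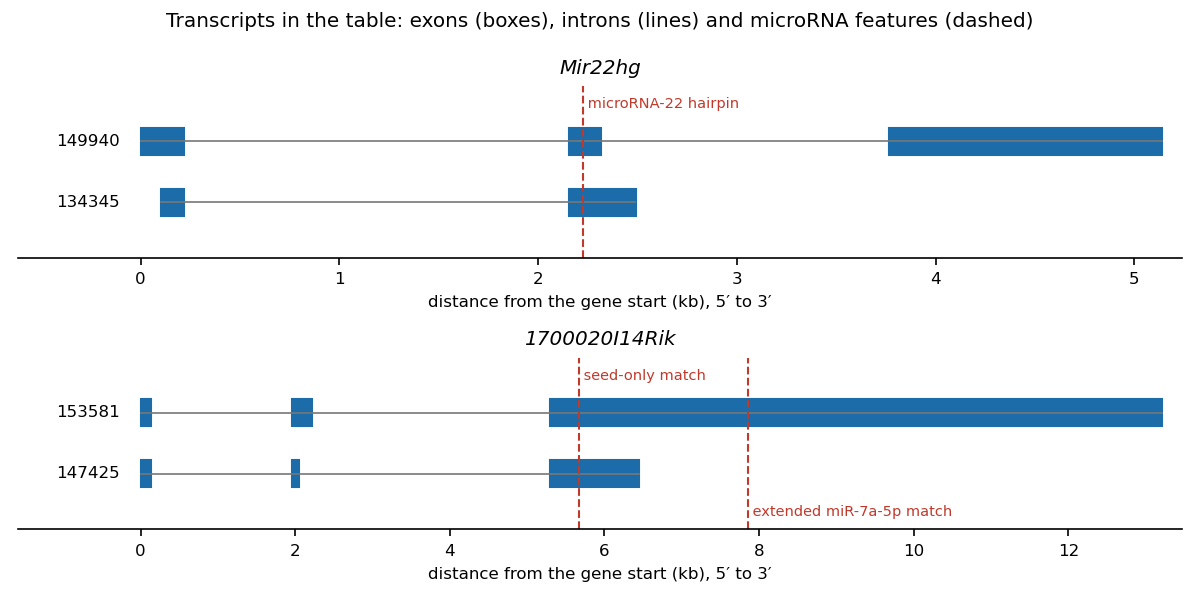
Exon maps of the Mir22hg and 1700020I14Rik transcripts, drawn to scale within each gene along the distance from the gene's start (kb), with exons as boxes and introns as lines and rows named by the last 6 digits of the Ensembl identifier. Dashed lines mark the microRNA-22 hairpin, inside exon 2 of both Mir22hg transcripts, and the microRNA-7 matches, of which the seed-only one lies in both 1700020I14Rik transcripts and the extended one in the long transcript alone.

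The table gives FPKM, the fragments assigned to a transcript scaled by its length and by the depth of the library, for each transcript and sample, and the values of a gene were summed over its transcripts. Summed FPKM per sample ranged from 576487 to 601724. Depth was estimated from the steps between low values at 12280000 to 15390000 fragments per sample. Differences are old minus young on the log2(FPKM + 0.1) scale, which understates changes of low values, and p-values come from limma with Benjamini-Hochberg adjustment over the 19649 genes with a mean of at least 0.1 FPKM. Of these genes, 5.41% were called higher and 3.68% lower in the old cochlea at an adjusted p of 0.05. Among the 5 tested lncRNAs, 1 passed, Neat1, which was higher in the old samples. An exact permutation test of 3 samples against 3 cannot give a two-sided p below 0.1.

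Without regard to a test, every old sample lay above every young one for Neat1 and Mir22hg, and below for 1700020I14Rik. Over all tested genes, 17.5% lay wholly above and 16% wholly below in the old samples. The rule used this contrast for Mir22hg and 1700020I14Rik, so nothing is read from their part of the count. Of the 17 transcripts, 4 lay wholly above (2 of Mir22hg, 1 of Neat1 and 1 of Malat1) and 4 wholly below (2 of 1700020I14Rik, 1 of Miat and 1 of Tug1). The corresponding shares over the 38764 transcripts tested were 12.6% and 12%. None of the 13 transcripts of the tested genes passed limma with adjustment over all transcripts, and 3 had an unadjusted p under 0.05. The share of all genes or transcripts under this unadjusted cut is not given. Nothing is therefore read from such counts, here or in the lists below.

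**Figure D2:**
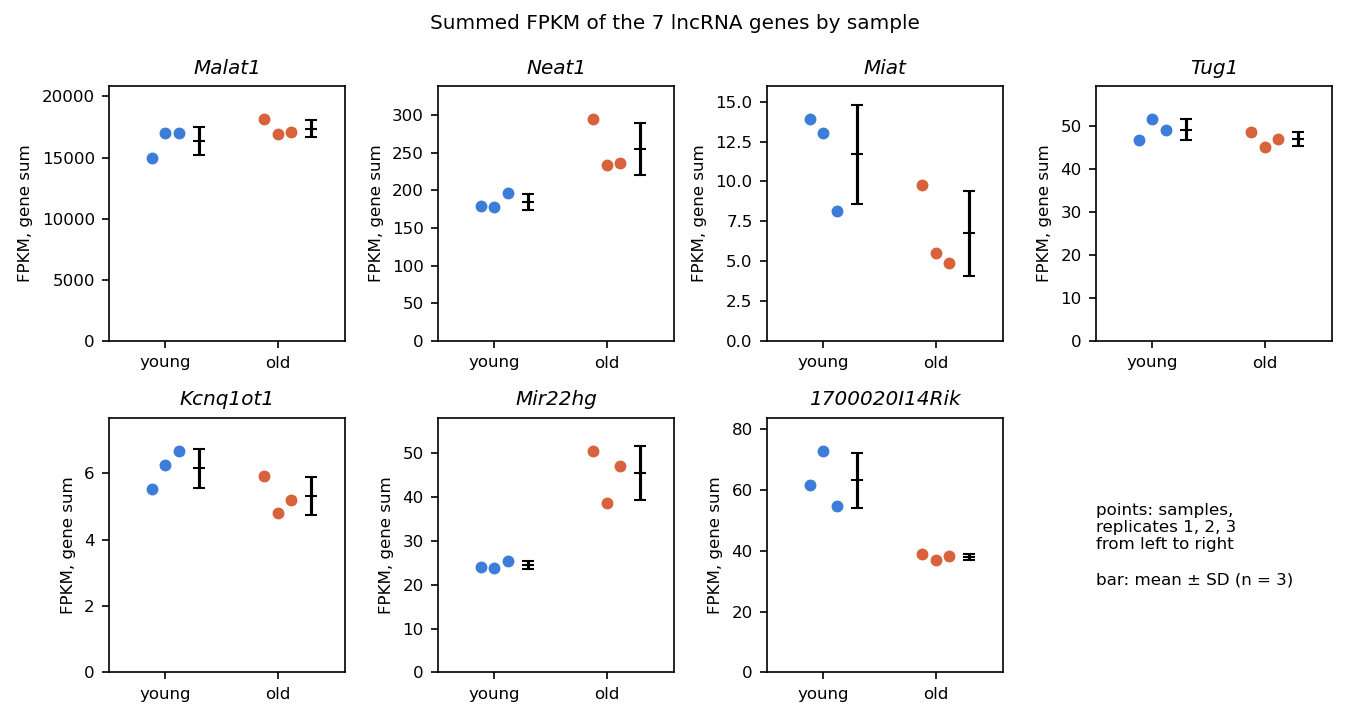
Summed FPKM of the 7 genes in each of the 3 young and 3 old samples (points, replicates 1 to 3 from left to right), with mean ± SD bars and every axis starting at 0. The groups are apart for Neat1, Mir22hg and 1700020I14Rik and overlap for Malat1, Miat, Tug1 and Kcnq1ot1.

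Mir22hg was higher in the old cochlea. It measured 24.0, 23.8 and 25.5 FPKM in the young samples and 50.6, 38.5 and 47.1 FPKM in the old samples. The young values lay close together and all 3 old values stood above them. The means were 24.4 ± 0.930 and 45.4 ± 6.18 FPKM (SD, n = 3), a 1.86-fold difference and 0.88 on the log2 scale (SE 0.11). In bulk tissue, more or fewer cells of a type and more or less RNA per cell cannot be told apart, here and in every result that follows.

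Both annotated Mir22hg transcripts contain the hairpin printed above, and both were higher. The longer, spliced from 3 exons into 1752 nt (ENSMUST00000149940), measured 17.7, 18.2 and 18.4 FPKM in young and 37.4, 27.4 and 32.4 FPKM in old samples. The shorter, of 449 nt (ENSMUST00000134345), measured 6.33, 5.54 and 7.10 FPKM in young and 13.2, 11.2 and 14.6 FPKM in old samples. The log2 differences were 0.82 and 1.03. The short-to-long ratio was 0.349 ± 0.0412 in young and 0.404 ± 0.0497 in old samples (SD, n = 3), so that the transcripts kept similar proportions within the spread between samples. Mature microRNA-22 was not measured by these libraries.

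The gene region of Mir22hg (chr11:75461539-75466676, plus strand) overlaps that of Tlcd2 on the same strand. Tlcd2 had means of 5.45 and 6.47 FPKM, with overlapping groups (log2 difference 0.23, limma adjusted p = 0.475). Wdr81, on the lower-coordinate side, went from 7.18 to 6.45 FPKM (adjusted p = 0.411), and Prpf8, a core spliceosome protein gene on the other side, from 59.2 to 65.2 FPKM (adjusted p = 0.181). No neighbour of Mir22hg passed the test.

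A list of 19 genes described as targets of microRNA-22 was measured in full. Of these, 1 was called higher and 0 lower by limma, and 2 and 2 had an unadjusted p under 0.05. Their median log2 difference was -0.06, against 0.01 over all genes. The gene called was Rgs2, a regulator of G protein signalling, at 19.3, 16.97 and 17.1 FPKM in young and 31.4, 32.7 and 21.6 FPKM in old samples (log2 difference 0.66, adjusted p = 0.0477). Rgs2 passed without old replicate 3 (adjusted p = 0.0416) and lost its call when any other single sample was left out, with an adjusted p of up to 0.146. Trp53inp1, a stress-response gene, had means of 72.2 and 95.7 FPKM (adjusted p = 0.161).

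1700020I14Rik was lower in the old cochlea. It measured 61.6, 72.8 and 54.8 FPKM in the young samples and 38.9, 37.0 and 38.3 FPKM in the old samples. Here the young values were spread and the old values were nearly equal, with every old value below the lowest young value. The means were 63.1 ± 9.11 and 38.1 ± 0.968 FPKM (SD, n = 3), and the old mean was 0.603 of the young mean (log2 difference -0.72, SE 0.11).

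The long transcript of 8300 nt (ENSMUST00000153581), which carries the extended microRNA-7 site, measured 48.4, 59.4 and 41.4 FPKM in young and 29.8, 27.5 and 28.1 FPKM in old samples. The short transcript of 1381 nt (ENSMUST00000147425), which lacks that site, measured 13.2, 13.5 and 13.4 FPKM in young and 9.15, 9.48 and 10.2 FPKM in old samples. Both were lower, with log2 differences of -0.79 and -0.47. The long-to-short ratio was 3.67, 4.40 and 3.09 in young and 3.25, 2.90 and 2.77 in old samples, which overlap. The spread of the young gene values lay mostly in the long transcript, and the short one varied little among young samples.

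The neighbours of 1700020I14Rik on chromosome 2 did not pass the test. Chp1, a calcineurin-like calcium-binding protein gene, had means of 83.8 and 82.6 FPKM (log2 difference -0.02, adjusted p = 0.909). Oip5, a centromere protein gene 2010 nt beyond the end of the lncRNA on the opposite strand, was low in both groups, at 0.642 and 0.474 FPKM. Of 9 genes of the microRNA-7 list, limma called 0, and 0 were higher and 2 lower at an unadjusted p under 0.05. The most abundant was Hnrnpk, an RNA-binding protein gene, at 237.2 and 263.2 FPKM (adjusted p = 0.219).

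**Figure D3:**
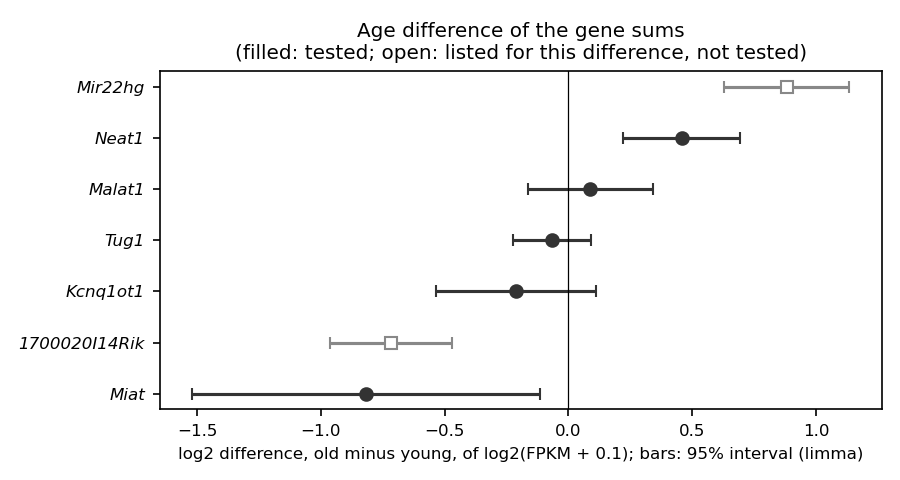
Log2 difference, old minus young, of each gene sum (horizontal axis) with its 95% confidence interval from limma (bars). Filled circles are the 5 tested genes. Open squares are Mir22hg and 1700020I14Rik, which were chosen by this difference, so that their intervals are no test of it. Miat, with an interval from -1.52 to -0.11, did not pass after adjustment over all genes.

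Neat1 was higher in the old cochlea. Its sum measured 179.3, 177.5 and 197.1 FPKM in the young samples and 294.4, 233.4 and 236.7 FPKM in the old samples. All 3 old samples were above the young range, and old replicate 1 was highest. The means were 184.6 ± 10.8 and 254.8 ± 34.3 FPKM (SD, n = 3), a 1.38-fold difference (log2 difference 0.46, SE 0.10, limma adjusted p = 0.0375, exact permutation p = 0.1). The call was not stable: leaving out any single sample other than young replicate 3 moved the limma adjusted p above the threshold, with a range of 0.0455 to 0.110. Adjustment over lncRNA genes alone gave an adjusted p of 0.0886, and fits with no filter, with no variance trend or with quantile normalization also lost the call, while the direction held throughout.

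Nearly all of the Neat1 value came from ENSMUST00000174287, a spliced transcript of 3004 nt at the 5′ end of the gene, with mean shares of 97.8% in young and 97.2% in old samples. It measured 174.6, 173.5 and 193.7 FPKM in young and 285.3, 225.2 and 232.3 FPKM in old samples (log2 difference 0.45, SE 0.10, limma adjusted p = 0.0959 over all transcripts). Young and old samples were apart for this transcript. The minor transcript ENSMUST00000174829, of 1030 nt, measured 4.74, 3.98 and 3.35 FPKM in young and 9.08, 8.17 and 4.42 FPKM in old samples, and the groups overlapped (adjusted p = 0.253). The unspliced transcript of 20771 nt (ENSMUST00000173672), the form that builds paraspeckles, was not among the transcripts with values in these data and could not be analysed. It covers the exons of the 3004-nt transcript, so that fragments of the long and short forms cannot be told apart there.

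Genes of 22 paraspeckle proteins were tested beside Neat1. Of the 22, 2 were called higher and 1 lower, with a median log2 difference of 0.05. Sfpq, a core paraspeckle protein that binds Neat1, fell from 36.3, 45.3 and 44.7 FPKM in young to 27.9, 29.2 and 32.0 FPKM in old samples (log2 difference -0.50, adjusted p = 0.0344). Cirbp, a cold-inducible RNA-binding protein, rose from a mean of 62.5 to 125.9 FPKM (log2 difference 1.01, adjusted p = 0.0129). Hnrnpa1, a splicing regulator, rose with a log2 difference of 0.34 (adjusted p = 0.0261). The other 19 did not pass, among them Hnrnpk, the most abundant of the list. The count ranged from 0 to 3 when single samples were left out, and was 0 without old replicate 2 and 1 without old replicate 1, old replicate 3 or young replicate 2.

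Malat1 was by far the most abundant of the lncRNAs and did not differ detectably with age. It measured 15002, 17046 and 17020 FPKM in the young samples and 18135, 16918 and 17064 FPKM in the old samples. The groups overlapped, with young replicate 1 lowest and old replicate 1 highest. The means were 16356 ± 1173 and 17373 ± 665 FPKM (SD, n = 3), and the log2 difference of 0.09 had a 95% confidence interval from -0.16 to 0.34 (limma adjusted p = 0.633, exact permutation p = 0.4). The sum ranked 2 among all genes tested and 1 among lncRNA genes, and took 2.57% to 3.06% of the summed FPKM of a sample.

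The 3 Malat1 transcripts analysed are short spliced pieces at the ends of the gene (chr19:5795690-5802672, minus strand). The unspliced transcript of 6983 nt (ENSMUST00000172812) was not among the transcripts with values in these data. Its fragments fall on the pieces too, so that the sum does not count molecules. Of the pieces at the 3′ end, ENSMUST00000173314 (556 nt) measured 6630, 7633 and 7589 FPKM in young and 8175, 7687 and 7513 FPKM in old samples. ENSMUST00000174808 (656 nt) measured 6184, 6540 and 6805 FPKM in young and 7266, 6923 and 7085 FPKM in old samples, with old samples wholly above young (log2 difference 0.12, adjusted p = 0.449). At the 5′ end, ENSMUST00000173499 (485 nt) measured 2187, 2873 and 2627 FPKM in young and 2695, 2307 and 2466 FPKM in old samples. The 5′ piece over the sum of the 3′ pieces was 0.185 ± 0.0162 in young and 0.167 ± 0.00846 in old samples (SD, n = 3), within the spread between samples.

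Genes of 26 nuclear speckle proteins were tested beside Malat1, and 1 was called higher and 1 lower (median log2 difference 0.08). Srsf5, a serine/arginine-rich splicing factor, rose from a mean of 189 to 309 FPKM (log2 difference 0.71, adjusted p = 0.0162). Srsf7, of the same family, fell from 37.1 to 29.7 FPKM (log2 difference -0.32, adjusted p = 0.0377). Son, a scaffold protein of the speckle core, had means of 86.5 and 93.5 FPKM (adjusted p = 0.365). Leaving out any single sample left 1 call or none, none without old replicate 2 or young replicate 2. Malat1 and Neat1 are neighbours on chromosome 19. Frmd8, the nearest protein-coding gene at higher coordinates, had means of 17.6 and 16.2 FPKM and did not pass the test (adjusted p = 0.678).

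**Figure D4:**
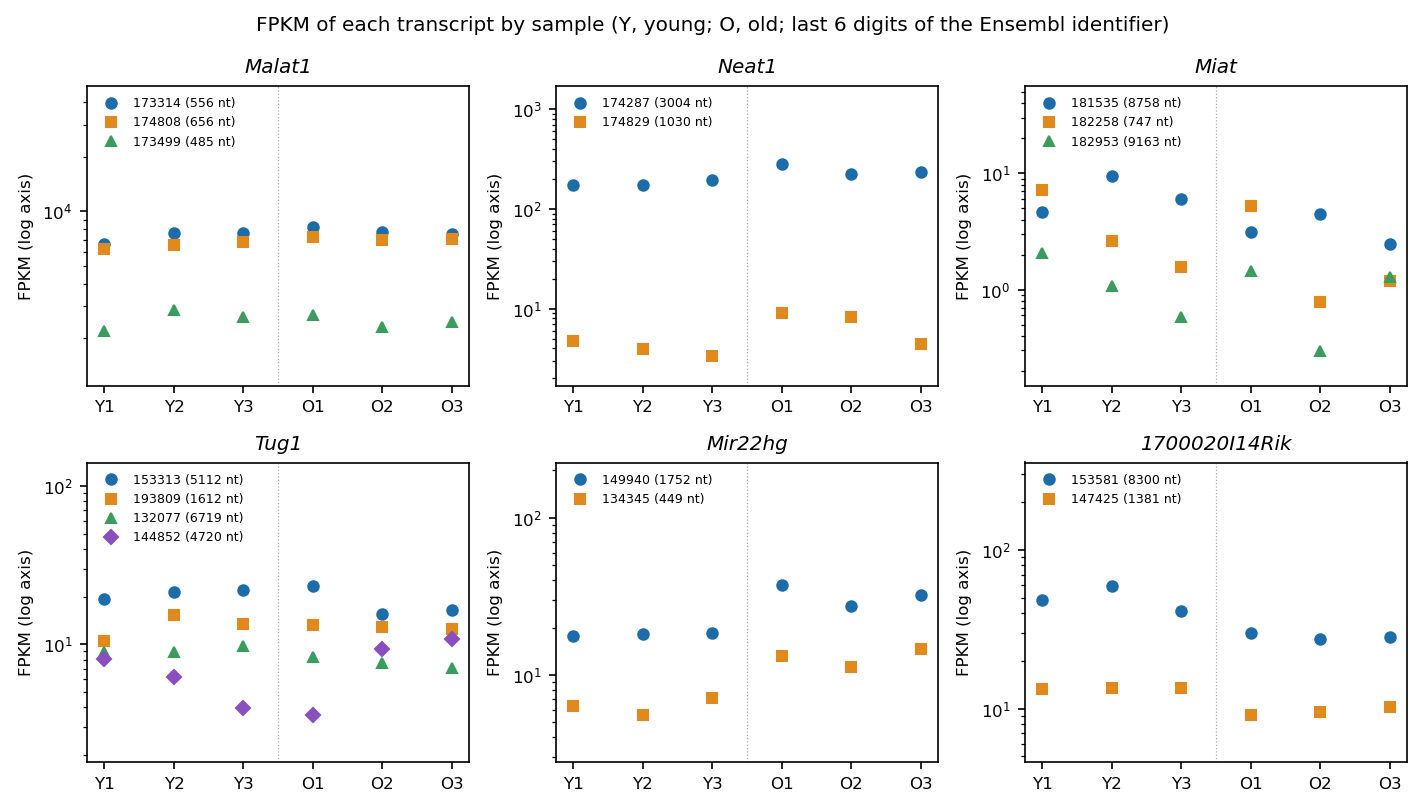
FPKM (log axis) of each transcript of the 6 genes with more than 1 transcript analysed, in young (Y1 to Y3) and old (O1 to O3) samples. The Mir22hg pair sits higher and the 1700020I14Rik pair lower in all 3 old samples, while the Miat and Tug1 transcripts cross each other between samples.

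Tug1 did not differ detectably and had a narrow interval. It measured 46.7, 51.6 and 49.0 FPKM in the young samples and 48.5, 45.2 and 46.9 FPKM in the old samples. The groups overlapped, and the means were 49.1 ± 2.41 and 46.9 ± 1.63 FPKM (SD, n = 3). The log2 difference was -0.07, with a 95% confidence interval from -0.22 to 0.09 (limma adjusted p = 0.567, exact permutation p = 0.3).

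Beneath this steady sum the 4 Tug1 transcripts varied more. ENSMUST00000153313 (5112 nt) measured 19.2, 21.3 and 21.9 FPKM in young and 23.5, 15.4 and 16.6 FPKM in old samples. ENSMUST00000144852 (4720 nt) measured 8.07, 6.18 and 3.97 FPKM in young and 3.58, 9.37 and 10.8 FPKM in old samples, with up to a 3.02-fold range within a group. These transcripts share their last exons, and old replicate 1 had the highest value of the first and the lowest of the second. ENSMUST00000132077 (6719 nt) was lower in all old samples, at 8.97, 8.87 and 9.68 FPKM in young and 8.31, 7.57 and 7.02 FPKM in old, without passing the test (log2 difference -0.26, adjusted p = 0.306). ENSMUST00000193809, a single exon of 1612 nt, ranged from 10.5 to 15.2 FPKM over all samples.

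The Tug1 region overlaps the start of Morc2a on the opposite strand, and Morc2a had means of 9.25 and 9.24 FPKM (adjusted p = 0.987). The libraries were directional, but whether the counting used the strand is not given in the sources used here. The genes on either side of Tug1 both fell: Smtn, a smooth muscle cytoskeletal protein, from 11.7 to 7.89 FPKM (log2 difference -0.55, adjusted p = 0.0361) and Osbp2, an oxysterol-binding protein, from 10.9 to 6.11 FPKM (log2 difference -0.82, adjusted p = 0.0261). Of 11 genes of Polycomb repressive complex 2, limma called 0, with 0 higher and 1 lower at an unadjusted p under 0.05. Of 5 genes of the PGC-1alpha axis it also called 0, with 0 higher and 1 lower at an unadjusted p under 0.05. Ppargc1a, which encodes PGC-1alpha, had means of 37.1 and 42.1 FPKM (adjusted p = 0.463), and Esrra, its nuclear receptor partner, 61.0 and 51.0 FPKM (adjusted p = 0.0879).

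Kcnq1ot1 was a low, long transcript whose groups overlapped. The single unspliced transcript of 93092 nt (ENSMUST00000185789, chr7:143203458-143296549, minus strand) measured 5.51, 6.23 and 6.67 FPKM in the young samples and 5.91, 4.79 and 5.19 FPKM in the old samples. Means were 6.14 ± 0.585 and 5.30 ± 0.571 FPKM (SD, n = 3), and the log2 difference was -0.21 with a 95% confidence interval from -0.53 to 0.11 (limma adjusted p = 0.372, exact permutation p = 0.2). Because of its length, its value rested on an estimated 6496 to 8006 fragments per sample, and the spread between samples rather than counting error limited the comparison. Its whole length lies within Kcnq1 on the other strand. Whether the counting used the strand is not given in the sources used here. A part from unspliced Kcnq1 RNA therefore cannot be told apart.

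Of the 14 tested genes of the imprinted domain around Kcnq1ot1, 11 had a log2 difference above 0, with 3 called higher, 0 lower and a median log2 difference of 0.39 against 0.01 over all genes. At an unadjusted limma p under 0.05, 4 were higher and 0 lower. The share of all genes under that cut is not given, so nothing is read from these numbers. Some genes with log2 differences above 0 had means under 1 FPKM and SEs of 0.52 to 1.00. These low genes enter both the count above 0 and the median, so neither is read as a rise of the whole domain. Cdkn1c, a cell-cycle inhibitor gene silenced on the paternal chromosome, rose from 47.9, 39.0 and 47.1 FPKM in young to 72.2, 62.0 and 62.9 FPKM in old samples (log2 difference 0.56, adjusted p = 0.0258). Cd81, a tetraspanin gene, rose from a mean of 326.5 to 427.8 FPKM (log2 difference 0.39, adjusted p = 0.0297), and Tspan32, a tetraspanin of blood cells, from 2.09 to 5.04 FPKM (log2 difference 1.23, adjusted p = 0.0137). Nap1l4, a histone chaperone gene at the edge of the domain, had means of 64.4 and 63.2 FPKM (adjusted p = 0.85). Kcnq1, the potassium channel gene that overlaps Kcnq1ot1 on the other strand and is expressed in the stria vascularis, had means of 45.5 ± 10.4 and 51.9 ± 4.59 FPKM (adjusted p = 0.451). The count fell to 0 without old replicate 1 or old replicate 2, to 1 without old replicate 3 or young replicate 2, and was 2 when young replicate 1 was dropped and 4 when young replicate 3 was.

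Miat had the lower mean in the old cochlea but did not pass. It measured 13.9, 13.1 and 8.14 FPKM in the young samples and 9.81, 5.50 and 4.91 FPKM in the old samples. The groups overlapped, because old replicate 1 lay above young replicate 3. The means were 11.7 ± 3.11 and 6.74 ± 2.67 FPKM (SD, n = 3), with a log2 difference of -0.82 (SE 0.30, 95% confidence interval -1.52 to -0.11, limma adjusted p = 0.132, exact permutation p = 0.2). Its spread between samples of a group was at the 97.6 percentile among genes of similar level, where Tug1 stood at the 14.4 percentile.

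The Miat transcripts with and without the TACTAAC copies are given separately, and the short one varied most within groups. ENSMUST00000181535 (8758 nt, with the copies) measured 4.64, 9.40 and 6.01 FPKM in young and 3.14, 4.42 and 2.45 FPKM in old samples. All its old values lay below the young ones (log2 difference -0.96, SE 0.32, adjusted p = 0.201 over all transcripts). ENSMUST00000182258 (747 nt, without copies) measured 7.21, 2.59 and 1.55 FPKM in young and 5.24, 0.778 and 1.18 FPKM in old samples, a range of up to 6.74-fold within a group. Its values rested on only an estimated 5.83 to 44.5 fragments per sample. Counting error and spread between pools cannot be told apart in this range. ENSMUST00000182953 (9163 nt, with the copies) measured 2.05, 1.07 and 0.578 FPKM in young and 1.43, 0.296 and 1.29 FPKM in old samples. The short transcript was highest in replicate 1 of either group, at 51.9% of the gene sum in young and 53.4% in old replicate 1. These 2 samples carried the highest gene sum of their group, so its few fragments weigh on the spread of the sum.

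Of 3 genes of proteins reported to bind Miat, limma called 0, with 0 higher and 1 lower at an unadjusted p under 0.05. These were Qk, a quaking RNA-binding protein, at means of 85.1 and 72.8 FPKM (adjusted p = 0.172), the branch-point binding protein Sf1 at 18.4 and 19.9 FPKM (adjusted p = 0.475), and the neuronal splicing factor Celf3 at 0.620 and 0.444 FPKM (adjusted p = 0.815). The nearest protein-coding gene at higher coordinates, Cryba4, was low at 0.433 and 0.578 FPKM (adjusted p = 0.856).

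Markers of other cell types and immediate early genes also differed between the groups, and they are set here beside the lncRNAs. Summed FPKM of 14 neuron markers was 1006, 1289 and 652 in young and 451, 487 and 447 in old samples, with 6 called lower and 0 higher. Young replicate 2 was highest and young replicate 3 lowest among young samples both for this sum and for 1700020I14Rik, and young replicate 3 was also lowest for Miat. For Miat, young replicate 1 was highest. Among old samples, replicate 2 was highest for the neuron sum and lowest for 1700020I14Rik. Summed FPKM of 19 hair cell markers ranged from 852 to 1093 in young and from 490 to 551 in old samples. Of the 18 tested, 8 were called lower and 0 higher. Most of this sum was Calb2, at means of 702.6 and 319.0 FPKM, so the sum mainly follows that gene. The 10 Schwann cell markers summed to 916 to 1402 and 781 to 814, with 4 lower, and 12 osteoblast markers to 149 to 449 and 87.0 to 106, with 3 lower. The summed levels of the erythrocyte markers overlapped between the groups, with 0 of 9 tested called by limma and 0 higher and 1 lower at an unadjusted p under 0.05. The part of these cell types in the lower values of 1700020I14Rik and Miat was not tested.

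Macrophage markers and immediate early genes moved in the other direction. Summed FPKM of 16 macrophage markers ranged from 169 to 268 in young and from 874 to 972 in old samples, with 12 called higher. For 22 immediate early genes the sum ranged from 176 to 245 in young and from 313 to 411 in old samples, with 10 called higher and 0 lower and a median log2 difference of 0.87. When single samples were left out these counts ranged from 2 to 12 and from 0 to 7, and the neuron count from 0 to 10. Without old replicate 2 they were 2, 0 and 0. Old replicate 1 was the highest sample for the immediate early sum, for the macrophage sum, for Neat1 and for Mir22hg. Lyz2 was the largest part of the macrophage sum, at 510.8, 399.6 and 440.1 FPKM in the old samples. The place of old replicate 1 in that sum therefore leans on this gene. Of the other markers, Ctss was highest in old replicate 1 and C1qc in old replicate 2. The other old samples differed in order. Both sums were higher in old replicate 2 than in old replicate 3, while Neat1 and Mir22hg were lower. The part of macrophages or of an immediate early response in the higher values of Neat1 and Mir22hg was not tested. In these 7 lists, no marker that the table holds was at 0 in all samples.

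The genes with the most similar profile over the 6 samples were found by the root mean square difference in centred log2(FPKM + 0.1) among 10400 genes with a mean of at least 5 FPKM. For Neat1 these were Klf6, a zinc-finger transcription factor gene that is also on the immediate early list (difference 0.0336), and Nalcn, a sodium leak channel gene (0.0451). Klf6 measured 23.3, 21.8 and 25.1 FPKM in young and 37.7, 30.7 and 31.1 FPKM in old samples. For Mir22hg they were Mafk, a small Maf transcription factor gene, at means of 13.9 and 27.0 FPKM (0.0719), and Bbox1, an enzyme gene of carnitine synthesis, at 7.39 and 13.0 FPKM (0.0823). For 1700020I14Rik they were Rap1gds1, a regulator of small GTPases, at 40.2 and 25.5 FPKM (0.0407), and Slc16a1, a monocarboxylate transporter gene, at 14.8 and 9.28 FPKM (0.0497).

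The likeness was looser for Miat, where Shox2, a homeobox gene, differed by 0.161 and Sh3gl2, a synaptic endocytosis gene, by 0.179. Sh3gl2 measured 25.4, 26.0 and 16.9 FPKM in young and 15.0, 10.3 and 11.3 FPKM in old samples. Its low young replicate 3, shared with Miat, follows from the choice by likeness and is no separate result. For Malat1 the closest were Tmem160 (0.0208) and Pcf11 (0.0226), for Tug1 Dnajc3 (0.0140) and Mon1b (0.0212), and for Kcnq1ot1 Cdc42ep3 (0.0302) and Ogt (0.0323). These are descriptions over 6 samples that share libraries and depth.

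**Figure D5:**
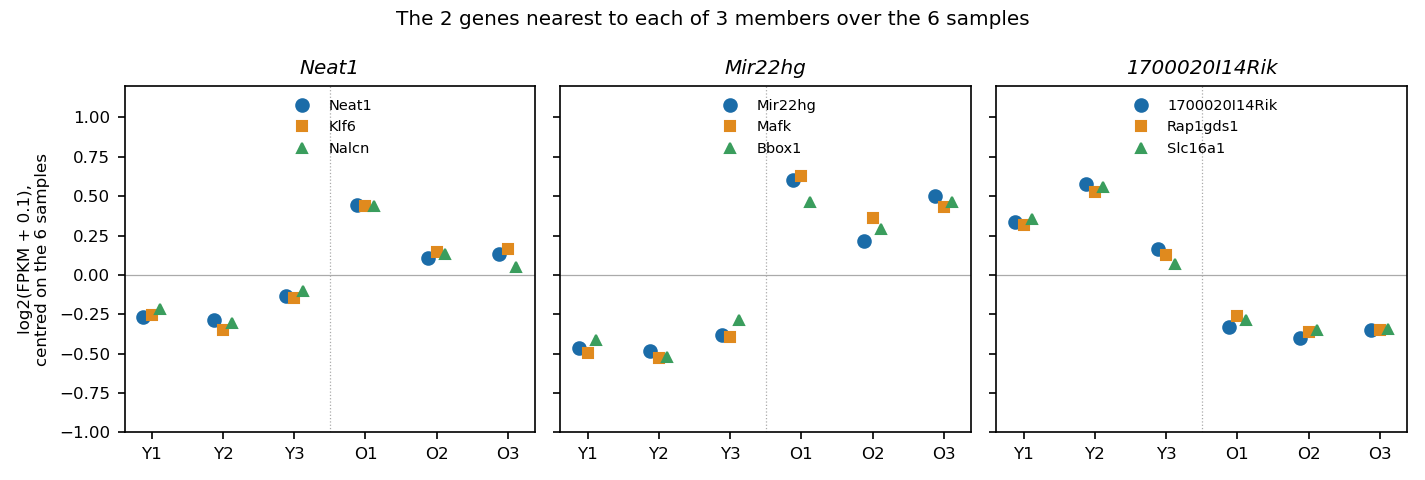
Log2(FPKM + 0.1), centred on the mean of the 6 samples, of Neat1, Mir22hg and 1700020I14Rik (circles) and of the 2 most similar genes of each (squares and triangles) in young (Y1 to Y3) and old (O1 to O3) samples. The points nearly coincide for Neat1 with Klf6, and the 3 young values of 1700020I14Rik and its 2 similar genes share their order. The similar genes were picked for their likeness over these samples, so this is no separate result.

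Other well-known lncRNAs and other microRNA host genes give the setting for these values. Of 20 listed lncRNAs, 16 were tested, and 1 was called higher and 0 lower (median log2 difference 0.23, against 0.05 over 3425 lncRNA genes, of which 86 were called higher and 53 lower). The one called was Airn, the antisense RNA of the imprinted Igf2r region, which rose from 7.47 ± 0.415 to 11.9 ± 2.37 FPKM (log2 difference 0.65, adjusted p = 0.0461). Airn passed without old replicate 3 (adjusted p = 0.0466) and in no other fit with a single sample left out, where the adjusted p reached 0.136. Gas5, a host of small nucleolar RNAs, had means of 163 and 195 FPKM (adjusted p = 0.165), and Xist, the RNA of the inactive X chromosome, 52.2 and 54.3 FPKM (adjusted p = 0.846). Beside Mir22hg, 7 microRNA host genes were tested, with 0 called higher and 1 lower (median log2 difference -0.54). That gene was Mir124a-1hg, host of a neuronal microRNA, at 6.87, 9.56 and 3.95 FPKM in young and 2.29, 2.98 and 2.54 FPKM in old samples (log2 difference -1.27, adjusted p = 0.0463). Mir124a-1hg passed without young replicate 3 (adjusted p = 0.0118) and in no other such fit, where the adjusted p reached 0.122. Its young values followed the order of the neuron marker sum, and its old values did not follow it fully. Mir99ahg, the most abundant of these hosts, had means of 64.9 and 58.1 FPKM (adjusted p = 0.303).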

How the data were processed

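Total RNA of cochlear tissue from 3 young and 3 old pools was sequenced from directional libraries as 150 bp paired-end reads. Per the labels, the authors' processing used CASAVA 1.8, TopHat2 2.0.9, Cufflinks 2.1.1 and Cuffdiff 2.1.1 on GRCm38, and the deposited values are FPKM per transcript and sample. The annotation release, the strand setting of the counting and the scaling between libraries are not given in the sources used here.

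Transcripts were matched to GENCODE M21. Of 55679 Ensembl transcripts 55275 matched and 404 did not, and 992 carried the authors' prefix LNC_. FPKM was summed per gene. The age groups were compared in R 4.3.3 by limma 3.58.1, whose moderated variances followed a trend, after log2 transformation with a pseudocount of 0.1. Genes or transcripts whose mean reached 0.1 FPKM entered, with Benjamini-Hochberg adjustment over all of them and a threshold of 0.05. Single genes were also compared by a two-sided exact permutation test. The design is 3 pools against 3, and p-values measure the spread between pools. The code was tested on simulated data. Depth was estimated from the steps of low FPKM values, of which 93.3% to 94.7% came within 0.1 of a whole fragment number (20% by chance), and covers counting error only. Python 3.11.15, pandas 2.3.3, numpy 2.4.6 and matplotlib 3.10.9 were used.

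The members and the gene lists were chosen with earlier results of these data known. Named genes are the members and their transcripts, of each list up to 4 called genes with the largest difference and the 2 most abundant, the nearest protein-coding gene on either side of each member, and the 2 genes most alike in profile. Where a list is summarised by its counts, its genes are not all named. The values of 3 genes that the rule names are not reported here. Celf3, outside this rule, was named to complete its list after its values were seen. Alternatives were the pseudocount (0.01 and 1), the filter (none and a mean of at least 1), median-of-ratios scaling, quantile normalization, no variance trend, a replicate block, the most abundant transcript, adjustment over lncRNA genes, and each sample left out. Leaving out samples and the block for the marker lists were added after the data were seen.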

Additional observations from a re-analysis of the deposited data

How the results depend on the processing

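Malat1, Miat, Tug1 and Kcnq1ot1 were not called in the main fit and were not called under any of the 16 alternatives. Several alternatives use fewer samples or give larger errors, so staying uncalled is no support for equal levels. Miat came nearest to the threshold, with a limma adjusted p of 0.0621 with the replicate block and 0.0712 without old replicate 1. Malat1 went to 0 under quantile normalization, which sets equal ranks to equal values. That 0 was fixed by the method for so highly ranked a gene and is no support. With single samples left out, the log2 difference was 0.80 to 0.99 for Mir22hg and -0.81 to -0.61 for 1700020I14Rik. Both genes were chosen by this difference, so these ranges describe it and give it no support. Neat1 kept its direction, with log2 differences of 0.35 to 0.52 with single samples left out, and lost its call by limma with no filter (0.46, adjusted p = 0.117), quantile normalization (0.38, 0.0645), no variance trend (0.46, 0.108) and adjustment over lncRNA genes (0.46, 0.0886). The cause was not tested.

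With no filter, 206 genes were called higher and 101 lower, and with no variance trend 271 and 121. Leaving out single samples gave 44 to 935 higher and 15 to 821 lower, the lowest without old replicate 2. Under both no filter and no variance trend, the calls were 0 for paraspeckle and for nuclear speckle proteins, 0 for microRNA-22 targets, 1 for Kcnq1ot1 domain genes, 0 for other known lncRNAs and 0 for microRNA host genes. With a pseudocount of 1, calls were 0 for microRNA-22 targets, other known lncRNAs and microRNA host genes. Quantile normalization left 0 microRNA-22 targets, and a mean of at least 1 FPKM gave 2 other known lncRNAs. With single samples left out the calls ranged from 0 to 3 for paraspeckle proteins, 0 to 1 for nuclear speckle proteins, 0 to 1 for microRNA-22 targets, 0 to 4 for Kcnq1ot1 domain genes, 0 to 3 for other known lncRNAs and 0 to 1 for microRNA host genes.

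The replicate numbers share no stated origin, and same-numbered samples did not deviate together (correlations 0.03, -0.10 and 0.04 for numbers 1, 2 and 3). The replicate block gave Neat1 0.46 (limma adjusted p = 0.0691), 410 genes higher and 265 lower, and calls of 1 for nuclear speckle proteins, 0 for microRNA-22 targets, 2 for other known lncRNAs and 0 for microRNA host genes. Pools of 3 mice in groups of 3 limit what can be called, and the annotated pieces of Malat1 and Neat1 limit what the sums stand for.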
